A study of Mus musculus with 25 samples.

Results

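The wide H3K27me3 domains of a mouse embryonic fibroblast line, line B, were chosen by peak width alone: they are the peaks of its deposited list whose end minus start exceeded 10000 bp. They numbered 4673 of 81972 line B peaks (5.70%, 95% exact binomial interval 5.54 to 5.86), and 213014 peaks stood in all 3 lists of the series. The series holds 25 libraries, and H3K27me3 was profiled by ChIP-seq in 2 lines of mouse embryonic fibroblasts (MEF) immortalized with c-myc, in which an antibody pulls marked chromatin from sonicated nuclei. It was also profiled in neural progenitor cells (NPC) derived from mouse embryonic stem cells by CUT&RUN, in which an antibody guides a nuclease to the mark in permeabilized cells. Line B was sampled as wild type, as Ezh2 -/- cells whose loss of Ezh2 the labels call reversible, and as cells with endogenous rescue of Ezh2. Line A was sampled as wild type, as Ezh2 -/- cells and as Ezh2 -/- cells given a retroviral pMSCV-Ezh2 construct. NPC were wild type and untreated, treated with the PRC2 inhibitors UNC1999 at 2 uM and A395 at 4 uM, or taken after washout of both. Each of these groups has 2 H3K27me3 libraries, all made with the clone C36B11 antibody of Cell Signaling Technology.

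The line B list is named after both the wild-type and the Ezh2 -/- libraries of the line, and no source used here states how either entered the peak calls. The lists give positions without heights, so the depth is unknown, neither replicates nor the genotypes and treatments could be compared. A base without a peak in a list had no called enrichment there, which does not show that the mark was absent. The line A and NPC lists were used only to ask how much of each domain they also covered, and NPC differed from line B both in cell type and in the assay used.

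H3K27me3 is the trimethylation of lysine 27 of histone H3. Polycomb repressive complex 2 (PRC2) writes it, with Ezh2 or its relative Ezh1 as the catalytic subunit, and its subunit Eed binds the mark and helps it spread along chromatin. Long blocks of the mark are known from silenced developmental genes such as the Hox clusters, and in mammals PRC2 is recruited mainly at unmethylated DNA rich in CG dinucleotides.

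Each of 5 stretches of 250 bases before a gene's first listed start stands for a pattern of coverage in the wide domains. They come from RefSeq, assembly GRCm38.p6, run 5′ to 3′ on the gene's strand, and show CG dinucleotides in capitals, a motif that reads alike on both strands. Prdm12, a zinc finger factor of pain-sensing neurons (chr2:31639787-31640036, plus strand, 10 CG), was covered over all 250 bases in the 3 lists.
Prdm12: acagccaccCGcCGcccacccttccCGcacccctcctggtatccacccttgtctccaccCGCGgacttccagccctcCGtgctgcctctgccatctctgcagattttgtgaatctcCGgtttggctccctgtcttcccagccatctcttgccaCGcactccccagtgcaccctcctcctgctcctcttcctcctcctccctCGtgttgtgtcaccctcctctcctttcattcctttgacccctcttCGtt
Pou3f2, a POU homeodomain factor of neurons (chr4:22488367-22488616, minus strand, 18 CG), was covered over 250 bases in lines A and B and over 0 in NPC.
Pou3f2: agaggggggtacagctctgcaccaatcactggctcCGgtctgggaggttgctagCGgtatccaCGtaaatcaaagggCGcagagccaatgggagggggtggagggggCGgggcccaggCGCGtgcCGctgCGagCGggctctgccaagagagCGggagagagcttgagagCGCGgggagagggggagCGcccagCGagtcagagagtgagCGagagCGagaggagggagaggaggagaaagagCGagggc
Sp8, a zinc finger factor of limb and forebrain (chr12:118846079-118846328, plus strand, 1 CG), was covered over 250 bases in line B and NPC and over 0 in line A.
Sp8: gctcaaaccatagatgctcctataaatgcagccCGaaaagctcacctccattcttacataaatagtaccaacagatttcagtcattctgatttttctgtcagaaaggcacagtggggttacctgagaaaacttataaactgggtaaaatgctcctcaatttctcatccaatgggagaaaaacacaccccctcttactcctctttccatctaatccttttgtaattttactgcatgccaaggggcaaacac
Zic4, a zinc finger factor of the cerebellum (chr9:91368722-91368971, plus strand, 4 CG), was covered in line B alone of the 3 lists.
Zic4: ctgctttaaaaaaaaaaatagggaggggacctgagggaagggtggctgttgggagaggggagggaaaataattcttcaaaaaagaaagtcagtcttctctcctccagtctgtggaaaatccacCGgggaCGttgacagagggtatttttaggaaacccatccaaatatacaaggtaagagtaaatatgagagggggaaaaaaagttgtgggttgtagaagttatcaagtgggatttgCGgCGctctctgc
Tgm3, a transglutaminase that cross-links proteins of the outer skin (chr2:130012090-130012339, plus strand, 6 CG), overlaps the third widest domain and was covered over 250 bases in lines A and B and over 0 in NPC.
Tgm3: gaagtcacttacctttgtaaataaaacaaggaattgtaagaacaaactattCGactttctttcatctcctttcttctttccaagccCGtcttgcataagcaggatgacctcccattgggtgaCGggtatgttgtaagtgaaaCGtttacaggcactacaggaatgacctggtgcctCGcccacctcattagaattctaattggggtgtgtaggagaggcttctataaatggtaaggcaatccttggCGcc

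The CG counts of these 5 stretches reached from below the lower to above the upper quartile of the domains. For the counts that follow, a stretch was placed by the base of the gene's first listed start. Over the 1081 genes with that base inside a wide domain the median was 7 CG (95% interval of the median 6 to 8, quartiles 3 and 17), against 10 over all 16457 genes with a listed start. In the 1196 stretches with that base in narrower line B peaks the median was 6.5, and in the 14180 with it outside line B peaks it was 11. At least 1 CG stood in 94.7% of the stretches in wide domains and in 93.0% of all of them, and 15 or more stood in 31.9% and 37.9%. Median GC content was 55.2% in wide domains and 55.6% over all, so the stretches in wide domains held fewer CG at nearly the same GC content. Sp8 has 3 listed starts, of which the first was taken, and the other 4 genes have 1.

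Mature sequences of 4 microRNAs are shown for their place in the domains, with the seed, bases 2 to 8, in capitals.
miR-9-5p: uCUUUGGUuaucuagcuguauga
miR-10a-5p: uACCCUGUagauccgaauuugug
miR-196a-5p: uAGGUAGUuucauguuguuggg
miR-203-3p: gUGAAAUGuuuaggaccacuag
The brain microRNA miR-9-5p is made from 3 hairpins on 3 chromosomes, and all lay in wide domains. Mir9-1 on chromosome 3 lay in a domain of 36.7 kb and was covered over its whole hairpin in the 3 lists. Mir9-2 on chromosome 13, in a domain of 31.5 kb, was covered in line B alone, and Mir9-3 on chromosome 7, in a domain of 23.3 kb, in lines A and B. The same mature sequence thus came from loci with 3 different patterns of coverage. The Hox cluster microRNAs miR-196a-5p and miR-10a-5p lay in the Hoxb domain described next, where line A covered the whole hairpin of Mir196a-1 and 0 bases of Mir10a. The skin microRNA miR-203-3p comes from Mir203 on chromosome 12, which was covered whole in the 3 lists within a domain of 17.3 kb. In all, 36 of 919 autosomal hairpins (3.92%, 2.76 to 5.38) lay inside wide domains, which is near the 3.83% of the autosome span that wide domains cover and so no result about microRNAs as a class. Line A covered 19 of the 36 whole and NPC 13.

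Wide domains covered 93.5 Mb, which was 39.7% of the 235.7 Mb of all line B peaks and 3.83% of the span of the 19 autosomes. Their median width was 15.2 kb (quartiles 12.0 and 22.4 kb), against 1016 bp for the other line B peaks. There were 1423 domains over 20 kb (30.5%), 188 over 50 kb (4.02%) and 19 over 100 kb. Width was the rule of choice, so these values describe the set. The 3 domains nearest to the limit were 10001, 10005 and 10006 bp wide, and the last 2 of these overlapped Marchf11 and Slc35f3. The 3 widest peaks left out were 9999, 9996 and 9995 bp wide and overlapped no protein-coding gene. For comparison, 5646 of 86235 line A peaks (6.55%) and 2316 of 44807 NPC peaks (5.17%) exceeded 10 kb.

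The widest domain (chr9:69654897-69856373) was 201.5 kb and held Foxb1, a forkhead factor of the developing brain, whole. Line A covered 68.5% of it in 24 separate peaks and NPC 38.3% in 15 peaks, and both lists covered all of the Foxb1 record itself. The next (chr13:42617490-42817167) was 199.7 kb, overlapped 137 kb of Phactr1, a regulator of actin and protein phosphatase 1, and was covered to 49.997% by line A and 8.62% by NPC. Both were single peaks in line B that the other lists covered in many peaks. Line A peaks over 10 kb took 39.0% of the Foxb1 domain and 24.1% of the Phactr1 domain, and NPC peaks over 10 kb took 25.8% and 0%.

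The third domain (chr2:129874230-130024709), 150.5 kb with Tgm3, was 81.6% covered by line A and 3.86% by NPC. The fourth (chr13:94584100-94734224), 150.1 kb, held no protein-coding gene, lay 17783 bp from Ap3b1, which encodes an adaptor subunit of vesicle transport, and was covered to 91.3% by line A and 0% by NPC. The calcium channel subunit gene Cacna2d2 was overlapped over 86.1 of its 129.6 kb by a domain of 137.0 kb (chr9:107348868-107485829). Line A covered 74.0% of that domain and NPC 62.7%. In this group line A covered most of each domain, while NPC ranged from none to most.

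Pax2, a paired-box factor of kidney and midbrain, lay whole in a domain of 135.9 kb (chr19:44712134-44848016) that line A covered to 95.5% in 4 peaks and NPC to 79.4% in 9. Lyzl6, which encodes a lysozyme-like protein of sperm, lay in 133.1 kb (chr11:103511973-103645066) with 96.0% in line A and 53.5% in NPC. The imprinted gene Zdbf2 and the neighbouring receptor gene Gpr1 shared 123.4 kb (chr1:63202837-63326232) with 91.0% in line A and 52.7% in NPC.

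A single domain of 128.5 kb (chr11:96260927-96389385) held 9 genes, Hoxb1 to Hoxb9, which was the most in any wide domain. Hox genes encode homeodomain factors that give position along the body axis. Line A covered 61.0% of it in 3 peaks and NPC covered 0%. The line A peaks left a gap in the middle: Hoxb1 and Hoxb5 to Hoxb9 were covered to 100%, Hoxb3 to 10.4%, and Hoxb2 and Hoxb4 to 0%. In NPC all 9 records were at 0%.

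**Figure D1:**
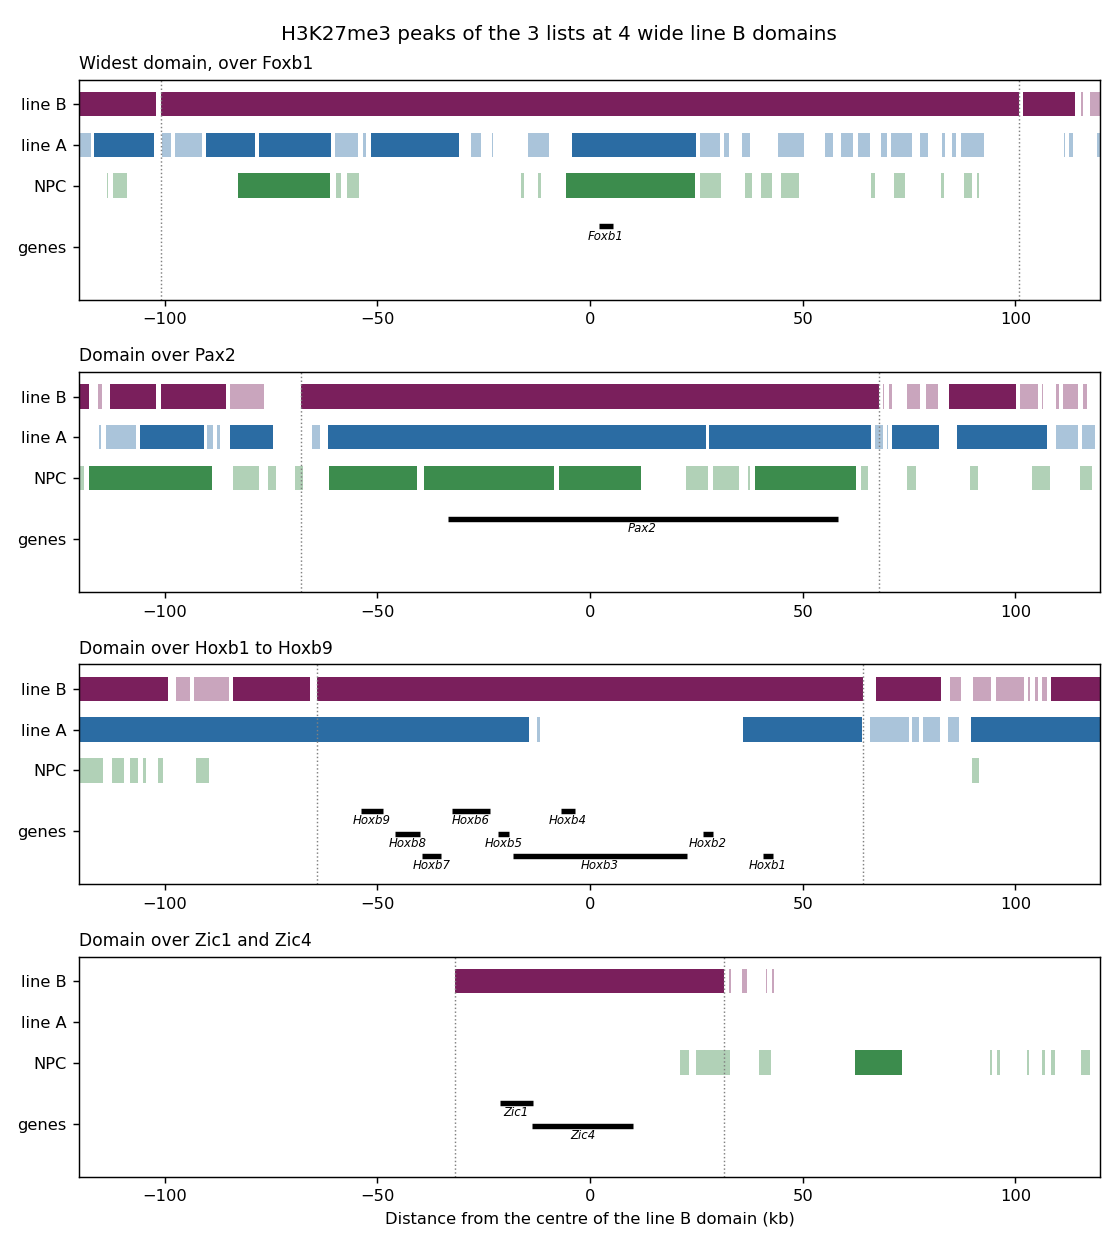
Peaks of line B (purple), line A (blue) and NPC (green) at 4 wide line B domains against distance from the domain's centre in kb, with peaks over 10 kb in full colour, narrower ones pale, gene records as black bars and the domain's ends as dotted lines. Foxb1 shows 24 line A and 15 NPC pieces under 1 line B peak, Pax2 broad peaks in all 3 lists, the Hoxb domain a line A gap and 0% in NPC, and the Zic1 and Zic4 domain 0% in line A.

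Wide domains shared at least 1 bp with 2035 of 20665 autosomal protein-coding genes, which is the background of 9.85% for every gene list given here (RefSeq records of GRCm38.p6, the assembly of mm10). Of these, 484 genes (2.34% of all records) lay wholly inside a domain and 1040 (5.03%) were covered over at least 50% of their length. A listed start lay inside a domain for 1117 of 16457 genes (6.79%). Genes wholly inside were short, with a median length of 4.95 kb, and those overlapped were long, with 26.1 kb, against 17.5 kb over all genes. Long genes can be met by a domain anywhere along their length, so counts by overlap are set beside counts by gene start.

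Neural transcription factors were the list met most often. Wide domains overlapped 54 of its 71 members (76.1%, 64.5 to 85.4), held 39 whole, and held the start of 41 of the 57 with a listed start. The median overlap was 4496 bp, against 0 bp over all genes. The longest overlaps were 131.9 kb at Lmx1a and 53.5 kb at Lmx1b, LIM-homeodomain factors of dopamine and serotonin neurons, 41.6 kb at the LIM-homeodomain gene Lhx4 and 40.7 kb at Sim1, a hypothalamic factor. Most of the 54 were also covered in line A, with a median of 93.9% of the record against 22.4% in NPC. Of the 54, 18 were covered to at least 50% in both lists. Over all 2035 overlapped genes the medians were 58.5% and 5.35%, and 293 were covered to at least 50% in both.

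Several proneural genes were covered in all 3 lists. Neurog1, Neurog2, Neurog3 and Neurod2, which encode basic helix-loop-helix factors that drive neuron formation, were covered to 100% in each. The oligodendrocyte factors Olig1 and Olig2 differed from these, with 100% in both fibroblast lines and 0% in NPC. Lhx1, Tal2 and Otx1 were covered to 100% by line B and Barhl1 to 49.5%, with 0% in both other lists, and Ptf1a had 0% in line A and 100% in NPC.

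Patterning factors formed the next lists. The wide domains overlapped 17 of 39 Hox genes (43.6%, 27.8 to 60.4), all of them whole, and held 8 of 22 listed starts. They were Hoxb1 to Hoxb9, Hoxb13, Hoxc12, Hoxc13, Hoxd1 and Hoxd10 to Hoxd13, so no Hoxa gene was among them. Hoxd10 to Hoxd13 lay in 96.3 kb (chr2:74600430-74696719) with their neighbour Evx2, where line A covered 91.4% and NPC 3.93%. Hoxc12 and Hoxc13 lay in 55.2 kb with 100% in line A and 79.9% in NPC. Hoxb13 lay in a separate domain of 63.1 kb, covered to 100% by line A and 73.3% by NPC. Hoxd1, with Hoxb2 and Hoxb4, was 1 of 3 Hox genes covered by line B and at 0% in both other lists.

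The list of paired-box, sine oculis, Iroquois, Dlx and Zic factors had 14 of 30 members overlapped (46.7%, 28.3 to 65.7) and 10 of 19 listed starts inside. Pax5, a B cell factor, was overlapped over 130.3 kb by 6 domains, and the eye and brain factor Pax6 over 24.4 kb by 1 domain with 93.5% in line A and 0% in NPC. The 4 autosomal Zic genes were covered by line B and had 0% of their records in both other lists. Zic1 and Zic4 shared 63.2 kb (chr9:91347620-91410850), where line A covered 0% and NPC 14.0% outside these genes. Zic2 and Zic5 shared 42.3 kb (chr14:122460019-122502340), where both covered 0%.

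Factors of other germ layers were overlapped as well. The endoderm list had 13 of 23 members overlapped (56.5%, 34.5 to 76.8) and 10 of 14 starts inside, led by 27.3 kb at Onecut1 and 19.5 kb at Nr5a2, factors of liver and pancreas. Foxa2, a forkhead factor of gut endoderm, lay whole in 52.4 kb that line A covered to 100% and NPC to 23.9%. The heart and muscle list had 9 of 20 overlapped (45.0%, 23.1 to 68.5) and 7 of 14 starts inside, with 53.5 kb at Tbx20, a T-box factor of the heart. Mef2c, a muscle and neuron factor, was overlapped over 31.8 kb and had 0% in line A and in NPC.

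Secreted signals came next. Wnt ligands had 10 of 19 members overlapped (52.6%, 28.9 to 75.6) and 7 of 15 starts inside. Wnt3a lay whole in 54.0 kb with 97.0% in line A and 86.4% in NPC, and Wnt6 and Wnt10a shared 53.7 kb with 75.6% and 87.9%. Fgf, Bmp and hedgehog ligands had 13 of 40 overlapped (32.5%, 18.6 to 49.1) and 5 of 27 starts inside. In domains above 20 kb 2 of the 40 were overlapped, which is near the 4.85% of all genes at that width. Shh and Ihh, hedgehog ligands, lay whole in domains of 19.3 and 43.4 kb, covered in line A to 69.5% and 81.7% and in NPC to 71.4% and 79.9%. Bmp2, a bone morphogenetic protein, lay whole in 12.9 kb with 0% in line A and 36.4% in NPC. Fgf2, a growth factor added to the NPC medium per the labels, was overlapped over 3.43 kb and had 0% in both other lists.

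Ion channel genes, a list not limited to neurons, and neurotransmitter receptor genes were met mostly in part. Potassium, sodium and calcium channel genes had 53 of 88 members overlapped (60.2%, 49.2 to 70.5), a median overlap of 5601.5 bp, 28 of 61 starts inside, and 4 members wholly inside. The longest overlaps were 198.5 kb in 10 domains at Cacna1d, an L-type calcium channel, 175.6 kb in 6 domains at the potassium channel Kcnd3, 157.4 kb in 9 at Kcnma1 and 117.2 kb in 4 at Kcnh1. The median length of the list was 59.0 kb. Neurotransmitter receptors had 25 of 84 overlapped (29.8%, 20.3 to 40.7) and 13 of 61 starts inside, with 154.2 kb at the GABA-B receptor Gabbr2 and 136.9 kb at the glutamate receptor Gria1. Gria1 was covered to 72.4% by all line B peaks, to 5.12% by line A and to 0.529% by NPC.

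Axon guidance genes had 13 of 56 overlapped (23.2%, 13.0 to 36.4) and 9 of 46 starts inside, and neuronal adhesion genes had 8 of 40 (20%, 9.05 to 35.6) and 6 of 30. With at least 50% of the record required, 2 of the 56 guidance genes counted, which is below that rule's background of 5.03% and turns the direction. The median lengths of the 2 lists were 136.4 and 283.6 kb, and 0 of them lay wholly inside a domain. Slit1, a repulsive axon guidance ligand, was overlapped over 82.7 kb by 5 domains, with 80.5% of the record in line A and 94.95% in NPC. Nfasc, a cell adhesion protein of the axon initial segment, was overlapped over 140.1 kb by 7 domains, with 93.2% in line A and 34.1% in NPC. The interval of the adhesion list reached below the background of 9.85%.

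Genes of blood and epithelium were overlapped too. The blood and immune list had 14 of 38 members overlapped (36.8%, 21.8 to 54.0) and 9 of 27 starts inside. Ikzf3, a lymphocyte zinc finger factor, was overlapped over 70.9 kb, and the T cell receptor subunit genes Cd3d, Cd3e and Cd3g lay in 2 adjacent domains of 22.0 and 53.9 kb with 87.1% and 80.7% in line A. The epithelial and keratin list had 8 of 30 overlapped (26.7%, 12.3 to 45.9) and 4 of 19 starts inside, with 42.7 kb at the splicing factor Esrp1. Germline and meiosis genes had 3 of 20 overlapped (15.0%, 3.21 to 37.9), namely Asz1, Stag3 and Mov10l1, and 1 of 18 starts inside, which is below the 6.79% of all genes, and the interval of the overlap includes the background.

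Fibroblast identity genes had 0 of 28 members overlapped (exact interval 0 to 12.3%, and 10.7% by the limit of 3 counts), and housekeeping genes had 0 of 28 with the same limits. Since both limits lie above 9.85%, neither count is distinguishable from the background at this list size. The 12 MEF markers, among them Col1a1, Col1a2, Fn1, Vim and Thy1, had 0 kb of wide domain within 5 kb of the gene, and the nearest wide domain to any of them lay 26.5 kb from Twist1. The epithelial markers Cdh1, Epcam, Krt8 and Krt18 and the blood markers Ptprc and Spi1 also had 0 kb, so this was not particular to fibroblast markers. Line B peaks of any width took 16.1 kb at Spi1, 10.4 kb at Ptprc and 9.73 kb at Epcam in that window. They took 0 kb at Cdh1, Krt8 and Krt18, and 0 kb at the MEF markers except Twist2, with 0.574 kb. Wide domains took 29.4 kb at Pax6 and 14.0 kb at Neurod1, neural markers, and 17.9 kb at the T cell marker Cd3e in the same window. Polycomb subunit genes had 2 of 31 overlapped (6.45%, 0.791 to 21.4), Phc2 over 10.7 kb and Epop whole, and 0 of 24 starts inside. Ezh2 lay 225.4 kb from the nearest wide domain.

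**Figure D2:**
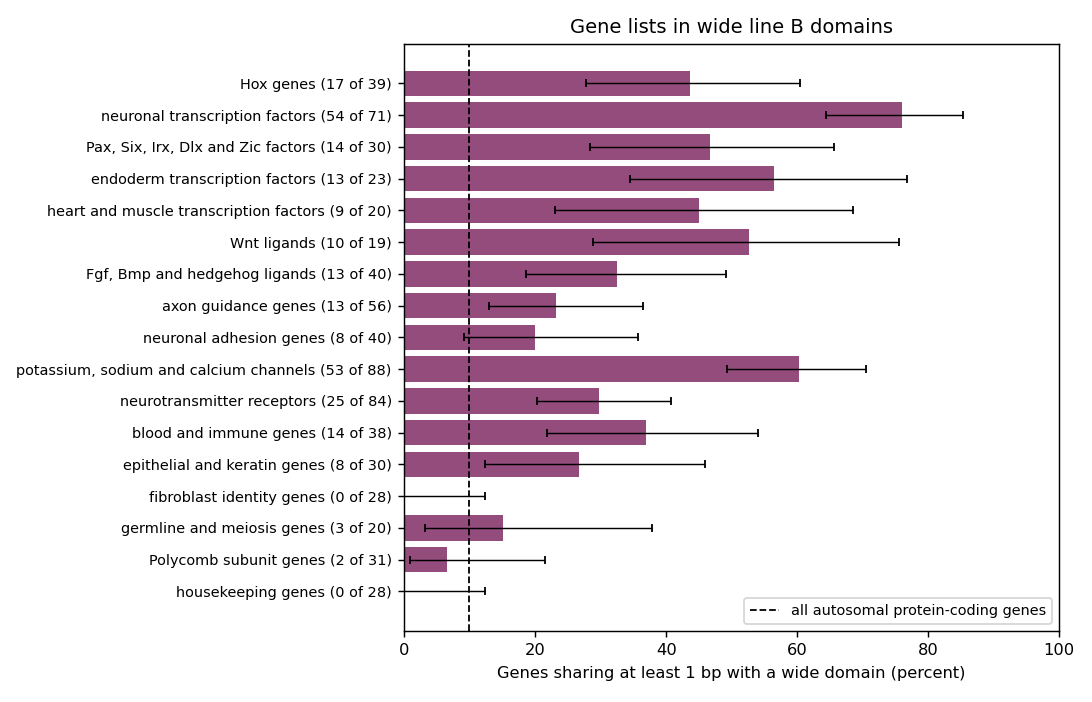
Bars give the percent of each list's autosomal genes that share at least 1 bp with a wide line B domain, with 95% exact binomial intervals and the counts beside each name, and the dashed line marks 9.85% of all autosomal protein-coding genes. Neural transcription factors (76.1%) and ion channels (60.2%) stand highest, and fibroblast identity and housekeeping genes stand at 0 of 28.

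Many wide domains held no protein-coding gene. This was so for 2091 of the 4673 (44.7%, 43.3 to 46.2), against 65.2% of all line B peaks and 66.4% of those of 10 kb or less. Another 2270 met 1 gene, 312 met 2 or more, and 1078 (23.1%) lay wholly within a gene record, 995 of them without a listed start. The gene-free share was 50.6% at 10 to 20 kb, 33.8% at 20 to 50 kb and 16.5% above 50 kb. A listed start lay in 16.2%, 32.1% and 50.5% of the same classes. Wider intervals meet more genes by their length alone, and these shares are not corrected for it.

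Gene-free domains lay a median of 27.7 kb from the nearest protein-coding gene (quartiles 9.80 and 70.0 kb). Of them 530 (25.3%) lay within 10 kb of a gene and 351 (16.8%) beyond 100 kb. The most distant lay 1182 kb from Celf2, which encodes an RNA-binding splicing factor. Long noncoding RNA records overlapped 573 (27.4%) of the gene-free domains, and 1159 of 12408 such records (9.34%) overlapped any wide domain.

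Distances between wide domains are given without those between all line B peaks, so they describe the wide domains only. The 4654 gaps between neighbours had a median of 39.0 kb (95% interval 34.9 to 44.2, quartiles 6.94 and 346.6 kb). They were under 3 kb in 792 cases (17.0%), under 10 kb in 1384 (29.7%), under 100 kb in 2853 (61.3%) and under 1 Mb in 4061 (87.3%). The narrowest gap was 709 bp, and the widest was 31.4 Mb on chromosome 16, with Epha6, an ephrin receptor gene, at the domain on its left.

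With neighbours under 100 kb apart taken as a run, the domains formed 1820 runs. Of the domains, 867 stood alone, 3806 (81.4%) stood in runs of 2 or more, and 270 runs of 5 or more held 2033 (43.5%). Runs were not counted over all line B peaks, so whether wide domains cluster more than other peaks was not tested. The run with the most domains had 23 over 1042 kb (chr2:129351541-130393066), of which 605.1 kb (58.1%) was wide domain, a lower share than in some shorter runs (86.4% in a run of 16 domains on the same chromosome), and the other lists covered 85.6% (line A) and 14.8% (NPC) of those bases. Its genes were Il1b, an inflammatory cytokine, Sirpa, a receptor for CD47, Pdyn, an opioid precursor, the transglutaminases Tgm3 and Tgm6, and Tmc2, Ebf4 and Cpxm1. Il1b was covered to 98.8% by line A and 0% by NPC, and Pdyn to 75.2% and 53.4%. A run of 17 domains on the same chromosome with Wt1, a zinc finger factor of the kidney, was covered to 44.1% by line A and 0.678% by NPC.

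Chromosome 7 stood apart from the other autosomes. It held 56 wide domains, or 0.385 per Mb, against 1.14 to 2.82 per Mb on the other 18, the highest being chromosome 2 with 504. Wide domains met 34 of its 2030 genes (1.67%), against 5.89% to 13.4% elsewhere. Those 56 domains were covered to a median of 86.1% by line A and 80.4% by NPC, whereas the NPC medians of the other chromosomes ran from 0 to 16.4%. All line B peaks covered 3.54% of chromosome 7, against 6.98% to 13.1% of the others. NPC peaks covered 14.9% of it, against 3.00% to 7.997% elsewhere, and line A peaks 10.4%. The lists hold no input or read values, so neither the depth behind the peaks of chromosome 7 nor its copy number in line B could be read from them.

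**Figure D3:**
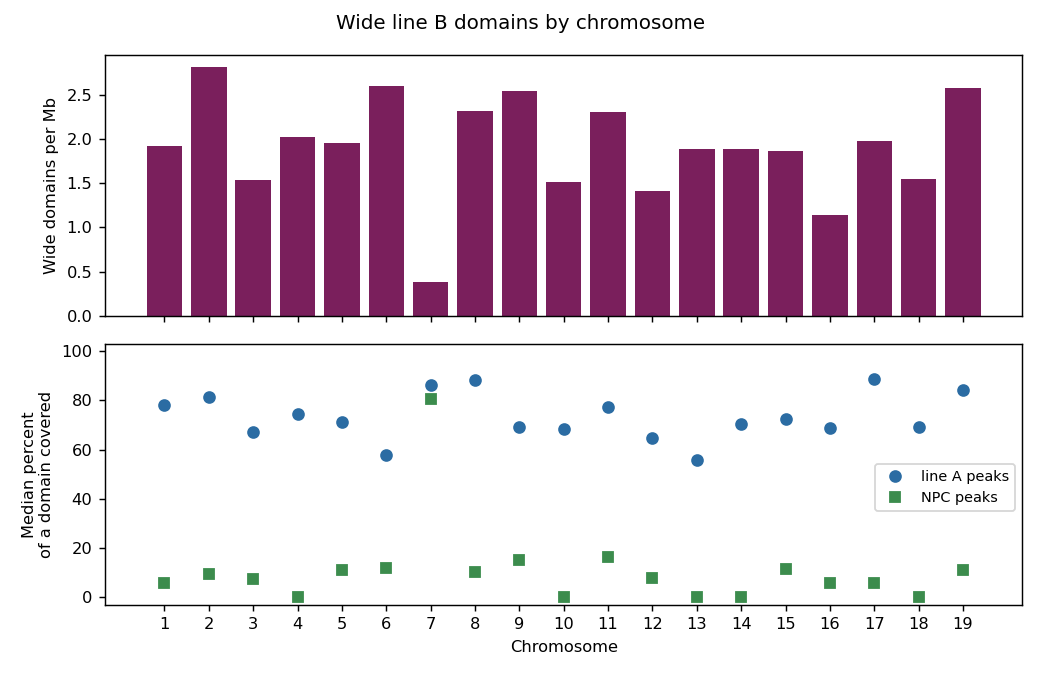
The upper panel gives wide line B domains per Mb for each autosome, and the lower panel the median percent of a domain covered by line A (circles) and NPC peaks (squares). Chromosome 7 has the fewest domains, 0.385 per Mb, and the highest NPC median, 80.4%.

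Line A, the other fibroblast line, covered most of most domains. The median share of a domain inside line A peaks was 73.8% (95% interval 72.6 to 75.01, quartiles 43.4 and 91.8), and for NPC it was 7.60% (6.32 to 8.69, quartiles 0 and 38.6). Pooled over bases, line A covered 67.0% of the wide domains and 45.8% of the narrower line B peaks, and NPC 23.6% and 15.7%. Line A peaks span 11.3% of the autosomes and NPC peaks 5.61%, so the NPC list had less to cover with. These intervals treat domains as independent, which domains in 1 run need not be, and they measure no spread between libraries.

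At least 50% of the domain was covered by line A in 3321 domains (71.1%, against 39.2% of all line B peaks) and by NPC in 921 (19.7%, against 12.8%). Line A covered 0 bp of 360 (7.70%, against 49.3%) and NPC 0 bp of 1918 (41.0%, against 79.1%). Both lists covered at least 50% in 765 domains (16.4%, against 7.51%), and both covered 0 bp in 220 (4.71%, against 43.6%). By these counts wide domains met the other lists more often than line B peaks at large did. At 90% or more the order held in line A (28.3%, against 26.7% of all line B peaks). In NPC it turned at that limit (5.31%, against 8.25%). At whole coverage it turned in both lists. All bases lay inside line A peaks in 538 domains (11.5%, against 22.6% of all line B peaks) and inside NPC peaks in 137 (2.93%, against 7.32%). The share of bases covered rose over all width classes in line A, from 30.8% in peaks up to 1 kb to 74.4% above 50 kb. In NPC it went from 10.5% to 25.5% at 20 to 50 kb and was 24.7% above 50 kb. The part of width itself in these values was not tested.

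**Figure D4:**
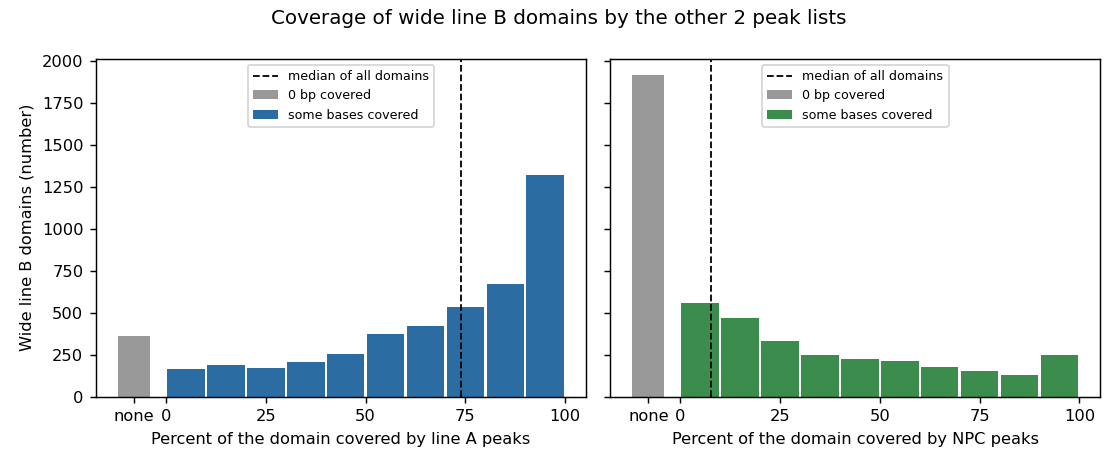
Wide line B domains counted by the percent of their bases inside line A peaks (left) and NPC peaks (right), with 0 bp covered as a grey bar and the median of all 4673 domains as a dashed line. Line A piles up at 90% or more, with 1322 domains, and NPC at 0 bp, with 1918.

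A domain was often not a single wide block in the other lists. A line A peak over 10 kb overlapped 2202 domains (47.1%) and an NPC peak over 10 kb overlapped 635 (13.6%). Line A covered 1363 domains with 1 peak and 532 with 5 or more, and NPC 1191 and 171. These counts are not given over all line B peaks, so they describe the wide domains only. Along the domains, line A covered 58.9% and 59.2% of the first and the last of 10 equal parts and 70.0% of the sixth, and NPC 17.7%, 18.1% and 25.4%. In the 10 kb beyond either end line A covered 41.9% and 40.8%, NPC 12.8% on both sides, and further line B peaks 49.2% and 48.8%. Coverage by both other lists was therefore lower at the ends than inside and lower again outside.

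**Figure D5:**
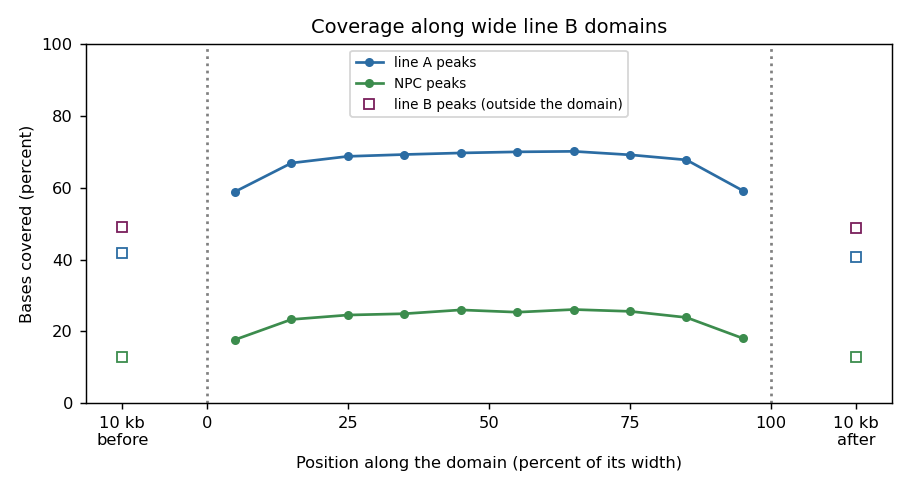
Percent of bases covered by line A (blue) and NPC (green) peaks in 10 equal parts along the wide line B domains, with open squares for the 10 kb on either side, where line B peaks (purple) are shown too. Line A runs from 58.9% in the first part to 70.1% in the seventh, where it is highest, and NPC from 17.7% to 26.1%.

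At least 90% was covered by both lists in 114 domains (2.44%, against 3.8% of all line B peaks). The widest with a whole gene was 44.5 kb on chromosome 1, with the olfactory receptor genes Olfr1410 to Olfr1413. NPC covered 5.73% of the Olfr1413 record and 100% of those of Olfr1410, Olfr1411 and Olfr1412. Next in width was Prdm12 in 40.9 kb (chr2:31623135-31664012), with 99.2% in line A and in NPC. Bsx, a hypothalamic homeobox gene, lay in 34.2 kb with 97.8% and 91.7%. Prrt4 and the lysozyme gene Lyg1 followed in 28.9 and 28.0 kb.

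At least 90% in line A with 0% in NPC was found in 429 domains (9.18%, against 18.6% of all line B peaks). Sertm1 lay in the widest of these with a whole gene, 107.3 kb with 95.4% in line A. Olig1 followed in 47.4 kb, then Barhl2, a homeobox gene of retina and brain, in 37.9 kb, Pou3f2 in 35.8 kb and Ucp1, the uncoupling protein of brown fat, in 30.1 kb. The interferon genes Ifna9 and Ifna12 shared 27.3 kb, and Vax1, a homeobox gene of the ventral forebrain, lay in 24.4 kb. Several of these are genes of the neural lineage. The 0% in NPC was set by the rule of choice, and the other patterns also hold neural genes, such as Prdm12, Sp8 and Trim9.

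The reverse pattern, at least 50% in NPC with under 10% in line A, was found in 64 domains (1.37%, against 4.11% of all line B peaks). Sp8 was the only gene lying whole in such a domain among the 8 named, in 36.5 kb (chr12:118837194-118873676) with 5.25% in line A and 95.2% in NPC. The others were overlapped in part, among them Galnt16, an enzyme of protein O-glycosylation, with a domain of 21.7 kb, Rbm20, a splicing factor of heart muscle, with 19.6 kb, the neurotrophin gene Ntf3 with 17.6 kb and Nlrc5, a regulator of MHC class I genes, with 17.1 kb. These 4 domains had 0 to 3.41% in line A and 62.1 to 92.9% in NPC.

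Of the 220 domains with 0 bp in both other lists, 3 of the named ones held a gene whole, Zic2, Pvrig and Sval2. Trim9, a ubiquitin ligase of neurons, was covered to 99.3% by 2 adjacent domains of 75.9 and 47.7 kb with 0% in line A and in NPC. Ppp2r2b, a regulatory subunit of protein phosphatase 2A in brain, and Astn1, which acts in neuron migration, were overlapped by domains of 58.2 and 27.8 kb with 0 bp in both lists. Elsewhere along Astn1 line A covered 3.78% of the record, so the pattern there belonged to the domain and not to the gene. Over the 484 genes wholly inside wide domains, 386 (79.8%) were covered to at least 50% by line A, against 10.6% of all genes, and 167 (34.5%) by NPC, against 4.53%.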

How the data were processed

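H3K27me3 was measured by ChIP-seq (MEF) and CUT&RUN (NPC), per the labels' protocols. The deposited files used were 3 lists of peak positions (chromosome, start, end), 1 per cell system and not per sample, with no header, count, score or p-value. MACS2 2.1.1.20160309, Bowtie2 2.2.9, deepTools, Picard and DESeq2 appear in the submitters' processing notes without roles, as do the builds dm6 and mm10. Peak threshold, control and pooling are not known from the labels, so no stricter threshold could be set. A caller's rule for joining nearby enrichment sets where a wide peak ends, so width depends on it. Starts were read as 0-based and are printed 1-based.

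Overlap meant at least 1 bp. Coverage is shared bases over domain width. Genes were RefSeq records of GRCm38.p6 on 19 autosomes, and starts (20085, of 16457 genes) came from a RefSeq promoter table that is not complete. Of 688 list symbols in 17 lists, those on autosomes were used, and a few genes stand in 2 lists. Shares carry 95% Clopper-Pearson intervals, medians carry order-statistic intervals, and a count of 0 carries a limit of 3 counts. All cover counting error only. No test was made, since no list has replicates. Python 3.11.15, numpy 2.4.6, pandas 2.3.3, SciPy 1.17.1 and matplotlib 3.10.9 were used, and scripts were tested on simulated data.

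The domains, lists and rules were chosen with earlier results of these data known. Genes were named for the longest overlap (up to 4 in each of the 10 widest domains and in each list), for the widest domains of each coverage pattern (8 each), in the run with the most domains and at the largest gap, and at the width limit. Predicted records were left out. Some of the genes, markers and domains so chosen are not reported here, and other named genes and families, and the microRNAs, were chosen after their values were seen. Alternatives were other widths, joined peaks, other overlap rules and leaving out chromosome 7. The alternatives by gene start and of promoter CG above 20 kb were chosen after seeing the data.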

Additional observations from a re-analysis of the deposited data

How the results depend on the processing

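Widths set the counts. Above 5000 bp there were 11761 domains, 3205 overlapped genes and 6241 gene-free domains, with a median gap of 14.7 kb, median coverage of 68.2% in line A and 0% in NPC, 1636 domains at least 50% covered by both lists and 1263 with 0 bp in both. Above 20000 bp the same values were 1423, 1003, 448, 211.2 kb, 79.3%, 12.5%, 269 and 29. Joining peaks less than 3 kb apart first gave 7565 domains, 3477 overlapped genes, 1192 genes wholly inside, 3639 gene-free domains, 51.9% in line A, 2.69% in NPC and 726 domains with 0 bp in both. With at least 50% of a gene's record required, 1040 genes counted. With 90% in both lists required, 114 domains counted, and with under 10% in both, 370. What these shifts owe to the construction of each rule was not tested. The other 21 of 47 alternative values stayed within 1.5 times the count or within the interval of the median, all 10 of those without chromosome 7 among them. A share above that of all genes was found in 14 of 17 lists, in 12 of them with the whole interval above it, and in 13 to 14 lists under the 4 alternatives run for this count, which do not include widths above 5000 bp or joined peaks. For single lists, 23 of 68 counts moved by more than 1.5 times. No paired analysis was possible because the lists are not per sample and carry no replicate numbers. Leaving out each replicate could not be run for the same reason, and the depth that limits each list is unknown.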

Other observations

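Gene families grouped by symbol, chosen after their values were seen, differed in how often wide domains met them. Type I interferon alpha genes, antiviral cytokines, were met in 13 of 16 cases, all 13 whole. Their cluster on chromosome 4 carried separate wide domains, the widest of 60.3 kb with 7 genes, 95.1% covered by line A and 10.1% by NPC. Sox factors, which share an HMG box and act in many lineages, were met in 9 of 18 cases, Nkx homeobox genes in 7 of 14, and potassium channel genes with the prefix Kcn in 42 of 92. Olfactory receptor genes were met in 57 of 1104 cases (5.16%), vomeronasal receptor genes in 6 of 354 (1.69%) and Zfp zinc finger genes in 11 of 391 (2.81%), all below the 9.85% of all genes. Olfactory receptor genes wholly inside a domain numbered 46 (4.17%), which is above the 2.34% of all genes by that count.

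Wide domains also spanned small clusters of adjacent genes of other tissues. Gimap1, Gimap5, Gimap6 and Gimap7, which encode lymphocyte GTPases, were met by a domain of 47.2 kb with 81.3% in line A and 0% in NPC. The skin keratin genes Krt1, Krt2, Krt76 and Krt77 lay whole in 92.3 kb with 84.0% in line A and 59.5% in NPC. Of all genes grouped by the prefix Krt, 14 of 112 (12.5%) were met, against 9.85% of all genes. Wholly inside were 8 (7.14%), against 2.34%. H2-DMa, H2-DMb1 and H2-DMb2, which load peptides on MHC class II, shared 49.4 kb with the proteasome gene Psmb9, with 86.7% in line A and 24.6% in NPC. On chromosome 7, Slc17a7, the vesicular glutamate transporter of cortical neurons, shared a domain of 12.6 kb with Pth2, Gfy and Kash5, covered to 100% by both other lists.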
